A study of Mus musculus with 8 samples.

Results

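The genes described here encode the enzymes and partner proteins that modify tRNA at marks other than 3-methylcytidine (m3C). They were chosen by name: of a list of 57 mouse symbols, all 57 were rows of the deposited table, which holds 23818 symbols in all. The study measured total RNA and ribosome-protected fragments (footprints) in J1 mouse embryonic stem cells that lacked Mettl6 (knockout, KO, clone G6) and in wild-type (WT) J1 cells, and its question was how RNA levels and translation differ without Mettl6, a methyltransferase for m3C on tRNA. There were 2 libraries in each of 4 groups: KO total RNA, WT total RNA, KO footprints and WT footprints. All cells were cultured in 2i medium with LIF and received cycloheximide, which halts elongating ribosomes, for 10 min before lysis. The KO cells are a single clone, so effects of the genotype and of the clone's own history cannot be told apart. WT total RNA libraries are titled with an added suffix (new) that no other title has, and its meaning is not given in the sources used here.

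Newly made tRNAs carry many chemical marks. Marks in the anticodon loop, above all on the wobble base and on the base beside the anticodon, tune how a codon is read and keep the reading frame, while marks in the body of the molecule stabilise its fold. Most are placed by dedicated enzymes, some of which work only with a partner protein, and loss of several of them in mammals lowers the translation of particular codons or causes disease of the nervous system. Embryonic stem cells divide fast, which calls for a steady supply of finished tRNA.

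Mettl6, the targeted gene, stood at 2.31 and 0 CPM (reads of a gene scaled to a common library total) in KO total RNA, against 25.6 and 27.1 CPM in WT total RNA (log2 change −3.91, adjusted p = 0.000367 by limma-trend with Benjamini-Hochberg adjustment over all genes tested). In footprints it stood at 5.33 and 4.36 CPM in KO, against 3.38 and 6.59 CPM in WT, so the footprint groups overlapped. Judged from the CPM that a single read is worth, the total RNA libraries held 1301531 to 2031517 reads each and the footprint libraries 1835677 to 2960253. Among 8 markers of embryonic stem cells, summed levels in total RNA were 4471 and 4628 CPM in KO, against 5282 and 5067 CPM in WT. Nanog (740 and 736 CPM in KO, against 1309 and 1211 CPM in WT) and Zfp42 (569 and 652 CPM in KO, against 896 and 920.5 CPM in WT) were lower. Tdgf1 also lay below WT in both KO libraries (583 and 641 CPM in KO, against 668 and 684 CPM in WT). Tfcp2l1 (1439 and 1332 CPM in KO, against 1142 and 1096 CPM in WT) and Sox2 (292 and 320 CPM in KO, against 268 and 285 CPM in WT) lay above WT in both KO libraries. Pou5f1, Esrrb and Klf4 overlapped between the groups. The 8 markers of feeder fibroblasts summed to 18.4 and 5.25 CPM in KO, against 10.3 and 8.17 CPM in WT, and 5 of them (Col1a2, Col3a1, Twist2, Dcn and Lum) were at 0 in every total RNA library. The 7 markers of primitive endoderm summed to 20.7 and 19.7 CPM in KO, against 11.8 and 5.62 CPM in WT. Of these, Dab2 and Pdgfra lay above WT in both KO libraries, Sox17 lay below, and the others, Gata4 and Gata6 among them, did not separate. In footprints the 7 summed to 13.9 and 13.8 CPM in KO, against 13.2 and 12.2 CPM in WT. The part of these marker differences in the results below was not tested. In bulk RNA, fewer cells of a type and less RNA per cell cannot be told apart.

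Of the 6 tRNA modification genes that differed in total RNA (below), the promoters of 3 are shown, because these genes moved in opposite directions: Trmt44 was higher in KO, and Osgep and Nsun2 were lower. Each run ends at the base before the RefSeq start in build GRCm38.p6 and is written towards the gene. It is 250 bases long for Trmt44 and Nsun2, and 74 bases for Osgep, where the first exon of the neighbouring gene Apex1 begins. Capitals mark the letters of 6 motifs searched on both strands: the E-box CACGTG, the NRF1 core GCGCATGC, the ETS core CCGGAAG, the GC box GGGCGG, the CCAAT box and the C/EBP-ATF element TGATGNAA, with no match overlapping another here.

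Trmt44 upstream sequence, chr5:35575071-35575320, minus strand: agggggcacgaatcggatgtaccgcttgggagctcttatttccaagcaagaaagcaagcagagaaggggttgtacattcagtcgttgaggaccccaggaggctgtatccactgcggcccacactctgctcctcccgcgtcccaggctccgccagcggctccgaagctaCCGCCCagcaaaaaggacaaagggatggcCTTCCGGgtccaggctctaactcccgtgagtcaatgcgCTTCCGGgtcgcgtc

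Osgep upstream sequence, chr14:50924894-50924967, minus strand: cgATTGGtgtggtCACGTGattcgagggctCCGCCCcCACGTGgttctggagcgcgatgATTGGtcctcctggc

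Nsun2 upstream sequence, chr13:69611766-69612015, plus strand: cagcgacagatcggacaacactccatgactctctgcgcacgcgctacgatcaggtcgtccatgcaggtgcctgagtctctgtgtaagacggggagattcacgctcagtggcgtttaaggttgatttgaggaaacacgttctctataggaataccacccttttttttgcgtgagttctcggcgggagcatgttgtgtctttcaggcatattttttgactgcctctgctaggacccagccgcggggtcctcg

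The 74 bases between Osgep and Apex1, the base excision repair endonuclease that starts 75 bases away on the other strand, held 2 E-boxes, 1 GC box and 2 CCAAT boxes. The full 250 bases before Osgep held 3 E-boxes. A cut of 3, equal to Osgep's own count, was met by 14 of the 10490 promoters of genes tested in total RNA (0.133%). It was met by 1 of the 50 tRNA modification genes with a promoter in the table. As the cut follows Osgep, this is a description only. The Trmt44 window held 2 ETS cores and 1 GC box. None of the 6 motifs was found in the Nsun2 window, which says only that these letters are not there. GENCODE also has Nsun2 transcripts that begin further upstream than the RefSeq start. Across the 50 promoters, the GC box was found in 19 (38%), against 59.1% of the 10490, the ETS core in 9 (18%), against 13.7%, and the E-box in 3 (6%), against 8.57%. The CCAAT box was found in 18 (36%), against 37.5%, the NRF1 core in 2 (4%), against 4.6%, and the C/EBP-ATF element in 1 (2%), against 1.97%. A coding gene that starts on the other strand within 1000 bases was annotated for 14 of the 57 genes (24.6%), against 11.9% of 12155 coding genes tested in total RNA.

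In total RNA, few of the tRNA modification genes differed, and in both directions. All 57 passed the filter of a mean of at least 1 CPM. Limma-trend with Benjamini-Hochberg adjustment over 13222 genes put 6 of them below an adjusted p of 0.05. In KO 2 of these were higher and 4 lower, where 13.6% of all genes tested were called (6.57% higher and 7.03% lower). The share of these genes that was called, 10.5%, thus lay near that of all genes. At an unadjusted p below 0.05 there were 15 (26.3%), against 27.9% of all genes. Their median log2 change was −0.17, against −0.04 over all genes, and 37 of the 57 had a negative change, against 6924 of all 13222. In 21 (36.8%) both KO libraries lay below both WT libraries, and in 9 (15.8%) both lay above, against 29.8% and 26.4% of all genes. The genes higher in KO were Trmt44 and Adat1, and those lower were Nsun2, Elp2, Dus2 and Osgep.

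**Figure D1:**
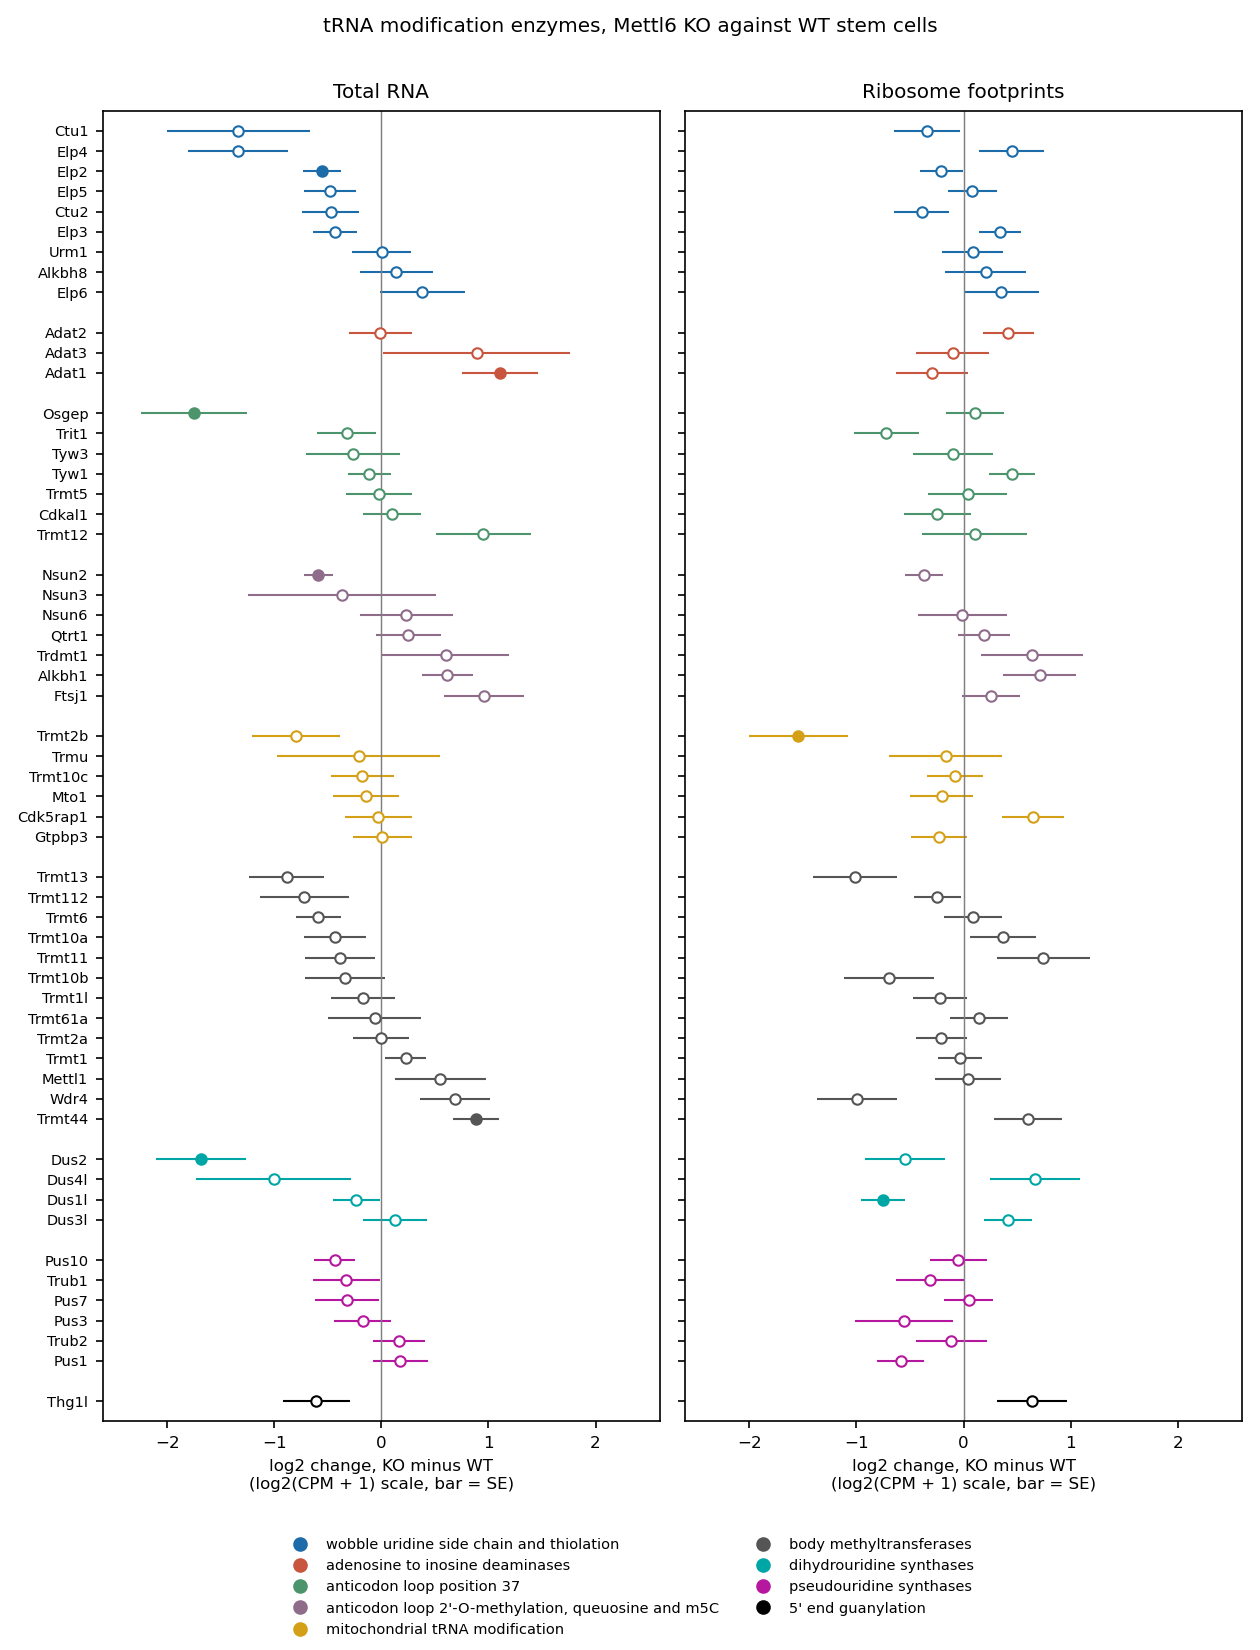
Log2 change between KO and WT of the genes, grouped by the role of the enzyme, in total RNA (left) and footprints (right; horizontal axes, log2 change on the CPM + 1 scale, bars SE), with filled points for genes at an adjusted p below 0.05. The 9 wobble uridine genes drawn lie mostly left of 0 in total RNA (median −0.47) and around 0 in footprints (median 0.09).

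The first role group acts on the wobble uridine. Elongator, a complex that includes Elp2, Elp3, Elp4, Elp5 and Elp6, starts the side chain of this base, Alkbh8 takes part in finishing it, and Ctu1 and Ctu2 add sulphur that Urm1 delivers. In total RNA 1 of these 9 genes was called, beside 13.6% of all genes, and it was lower. Elp2, a scaffold subunit (ENSMUSG00000024271.8, chromosome 18, 24602866 to 24639507, GRCm38), had 69.1 and 83.3 CPM in KO, against 111 and 113 CPM in WT (log2 change −0.56, SE 0.178, adjusted p = 0.0475 by limma-trend). Both KO libraries lay below both WT libraries, but the call was lost under 7 of 11 other settings, with an adjusted p from 0.0254 to 0.245 over them.

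The same separation, with KO below WT in every library, was seen in 6 of the 9 (Elp2, Elp3, Elp4, Elp5, Ctu1 and Ctu2), against 29.8% of all genes. Of these, Elp5 and Ctu2 lie on chromosomes 6, 8 or 11 (below). There 52.2% of genes showed this separation, against 24.7% on the other chromosomes. Elp3, the catalytic subunit, had 63.0 and 95.8 CPM in KO, against 99.4 and 111 CPM in WT (log2 change −0.43, adjusted p = 0.176 by limma-trend). Elp4 had 4.61 and 11.8 CPM in KO, against 14.8 and 28.1 CPM in WT (log2 change −1.34, adjusted p = 0.0687 by limma-trend). Its KO and WT groups did not overlap, but the libraries within each group also lay far apart. Log2 changes of the others were −0.48 for Elp5, −1.34 for Ctu1 and −0.47 for Ctu2, none of them called. Elp6 stood at 16.1 and 13.1 CPM in KO, against 12.3 and 9.71 CPM in WT, with no overlap and no call (adjusted p = 0.581 by limma-trend). Urm1 (log2 change 0.00) and Alkbh8 (0.14) overlapped between the groups. The median log2 change of these 9 genes was −0.47, against −0.04 over all genes. Ctu1 rests on 1 and 10 reads in KO and 18 and 15 in WT. Ctu2 shares 2441 exonic bases with Piezo1 on the other strand, strand use in the authors' counting is not stated in the sources used here, and Piezo1 was higher in KO (log2 change 1.2, adjusted p = 0.000169 by limma-trend), so the Ctu2 value is uncertain.

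Adenosine deaminases make inosine, at the wobble position for the pair Adat2 and Adat3 and beside the anticodon of alanine tRNA for Adat1. Adat1 (ENSMUSG00000031949.17, chromosome 8, 111966908 to 111992302) had 22.3 and 30.2 CPM in KO total RNA, against 10.3 and 12.8 CPM in WT, a 2.27-fold higher mean (log2 change 1.11, SE 0.351, adjusted p = 0.045 by limma-trend). The groups did not overlap. Adat1 was higher while the genes of its chromosome as a body were lower (below), and with each chromosome's median removed its log2 change was 1.55. Adat2 had 25.4 and 34.8 CPM in KO, against 36.9 and 24.3 CPM in WT, which overlap. Adat3 is uncertain: 98.5% of its 25-base words also occur in Gm49322, an annotated gene that spans it, and its levels were 9.99 and 0.656 CPM in KO, against 0.492 and 2.55 CPM in WT.

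The base beside the anticodon carries bulky marks. Osgep is the catalytic subunit of the complex that makes t6A, Cdkal1 adds a methylthio group to t6A, Trit1 adds the isopentenyl group, and Trmt5, Tyw1, Trmt12 and Tyw3 work on the guanosine there, the last 3 of them only in phenylalanine tRNA. Of these 7 genes 1 was called in total RNA, beside 13.6% of all genes. Osgep (ENSMUSG00000006289.14, chromosome 14, 50906478 to 50924893, minus strand) had 3.07 and 12.5 CPM in KO, against 26.6 and 21.5 CPM in WT (log2 change −1.75, SE 0.494, adjusted p = 0.0253 by limma-trend). Both KO libraries were low, but they differed widely from each other: the log2 change was −0.89 without KO library 1 and −2.61 without KO library 2. In reads, Osgep had 4 and 19 in KO, against 54 and 42 in WT. Apex1, whose start lies beside that of Osgep, had 113 and 118 CPM in KO, against 154 and 140 CPM in WT (log2 change −0.34, adjusted p = 0.164 by limma-trend). Trmt12 stood at 21.5 and 12.5 CPM in KO, against 10.3 and 6.13 CPM in WT, with no overlap and no call (log2 change 0.95, adjusted p = 0.168 by limma-trend). Trit1 was below WT in both KO libraries (log2 change −0.32, not called), and Trmt5, Tyw1, Tyw3 and Cdkal1 had log2 changes of −0.26 to 0.10, with adjusted p of 0.753 to 0.977 by limma-trend.

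A further 7 genes methylate riboses of the anticodon loop (Ftsj1), exchange its guanine for queuine (Qtrt1) or act through 5-methylcytidine in several parts of tRNA (Nsun2, Nsun3, Nsun6 and Trdmt1, with Alkbh1 oxidising the mark in mitochondria). Of these 7, 1 was called in total RNA, beside 13.6% of all genes. Nsun2, which methylates cytidines in many tRNAs, was the most abundant gene of all 57 per kilobase of transcript. Nsun2 (ENSMUSG00000021595.18, chromosome 13, 69533746 to 69635780) had 194 and 199 CPM in KO, against 289 and 303 CPM in WT, a 1.51-fold lower mean (log2 change −0.59, SE 0.133, adjusted p = 0.00691 by limma-trend). The groups lay far apart relative to the difference between libraries of a group, and the change stayed between −0.62 and −0.55 whichever library was left out. Alkbh1 and Ftsj1 had the opposite direction, with no overlap between groups and no call. Alkbh1 had 76.9 and 50.9 CPM in KO, against 41.9 and 39.1 CPM in WT (log2 change 0.62, adjusted p = 0.0966 by limma-trend), and Ftsj1 had 24.6 and 23.6 CPM in KO, against 16.2 and 8.68 CPM in WT (0.96, adjusted p = 0.0993). Qtrt1 (log2 change 0.25), Trdmt1 (0.60), Nsun6 (0.23) and Nsun3 (−0.37) overlapped between the groups. Nsun3 was near the limit of detection, at 0 and 2.62 CPM in KO and 0.984 and 2.04 CPM in WT.

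The 6 genes for mitochondrial tRNA marks were Trmu, Mto1, Gtpbp3, Cdk5rap1, Trmt10c and Trmt2b. Limma-trend called 0 of them in total RNA, beside 13.6% of all genes, and 0 had an unadjusted p below 0.05, beside 27.9%. Trmt2b, which makes 5-methyluridine in mitochondrial tRNA, had 9.99 and 7.22 CPM in KO, against 16.2 and 14.8 CPM in WT, with no overlap (log2 change −0.80, adjusted p = 0.22 by limma-trend). The other 5 overlapped between the groups, with log2 changes of −0.21 for Trmu, −0.14 for Mto1, 0.01 for Gtpbp3, −0.03 for Cdk5rap1 and −0.18 for Trmt10c.

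Of the 13 methyltransferases of the tRNA body and their partners, 1 was called, beside 13.6% of all genes, and it was higher. Trmt44, whose counterpart in budding yeast methylates a uridine ribose of serine tRNA (ENSMUSG00000029097.11, chromosome 5, 35556203 to 35575070, minus strand), had 69.9 and 76.1 CPM in KO, against 43.3 and 35.2 CPM in WT. Its mean was 1.86-fold higher in KO (log2 change 0.88, SE 0.216, adjusted p = 0.0113 by limma-trend), with no overlap. In 6 of the 13 both KO libraries lay below both WT libraries: Trmt1l, Trmt6, Trmt10a, Trmt10b, Trmt11 and Trmt13, with log2 changes of −0.88 (Trmt13) to −0.17 (Trmt1l). In 4 both lay above, against 29.8% below and 26.4% above over all genes. Trmt13 shares 820 exonic bases with Lrrc39 and 389 with Sass6, both on the other strand. Sass6 was lower in KO total RNA (log2 change −0.83, adjusted p = 0.037 by limma-trend), and Lrrc39 was not called (0.91, adjusted p = 0.434). Strand use in counting is not stated in the sources used here, so the Trmt13 value is uncertain. Trmt6 is the partner of Trmt61a, which makes 1-methyladenosine. Trmt6 had 44.6 and 42.0 CPM in KO, against 63.5 and 67.9 CPM in WT (log2 change −0.59, adjusted p = 0.0724 by limma-trend), while Trmt61a had 31.5 and 9.84 CPM in KO, against 18.3 and 18.9 CPM in WT. Both KO libraries of Trmt6 lay below WT, those of Trmt61a lay on either side of it, and the difference between the 2 genes was not tested. Mettl1 and its partner Wdr4, which make 7-methylguanosine, both lay above WT in both KO libraries. Mettl1 had 13.1 CPM in each KO library, against 10.3 and 7.15 CPM in WT (log2 change 0.55, adjusted p = 0.435 by limma-trend), and Wdr4 had 25.4 and 26.2 CPM in KO, against 17.7 and 13.8 CPM in WT (0.69, adjusted p = 0.177). Trmt1, which dimethylates a guanosine, was the fourth with KO above WT (0.23, not called). Trmt2a and Trmt112 overlapped between the groups, and Trmt112, an activator of several methyltransferases, shares 74.7% of its 25-base words with other transcripts, most with the pseudogene Trmt112-ps2.

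Dihydrouridine synthases reduce uridines of the tRNA body. Dus2 (ENSMUSG00000031901.12, chromosome 8, 105991337 to 106053840) had 4.61 and 11.2 CPM in KO total RNA, against 26.6 and 24.5 CPM in WT (log2 change −1.68, SE 0.423, adjusted p = 0.0133 by limma-trend). No KO library reached a WT library, and with each chromosome's median removed the change was −1.25. In reads, Dus2 had 6 and 17 in KO, against 54 and 48 in WT. Dus1l, Dus3l and Dus4l overlapped between the groups. Pseudouridine synthases gave no call among 6 by limma-trend, beside 13.6% of all genes. Among them 1, Pus10, had an unadjusted p below 0.05, beside 27.9% of all genes. Pus10 had 65.3 and 64.3 CPM in KO, against 99.9 and 77.6 CPM in WT (log2 change −0.44, adjusted p = 0.151 by limma-trend), and Trub1 was the other of the 6 with both KO libraries below WT (−0.33). Pus3 shares 95.2% of its words with other transcripts, most with Hyls1 on the other strand, and its value is uncertain. Thg1l, which adds a guanosine to the start of histidine tRNA, had 16.1 and 22.3 CPM in KO, against 34.0 and 25.5 CPM in WT (log2 change −0.61, adjusted p = 0.217 by limma-trend), with no overlap.

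**Figure D2:**
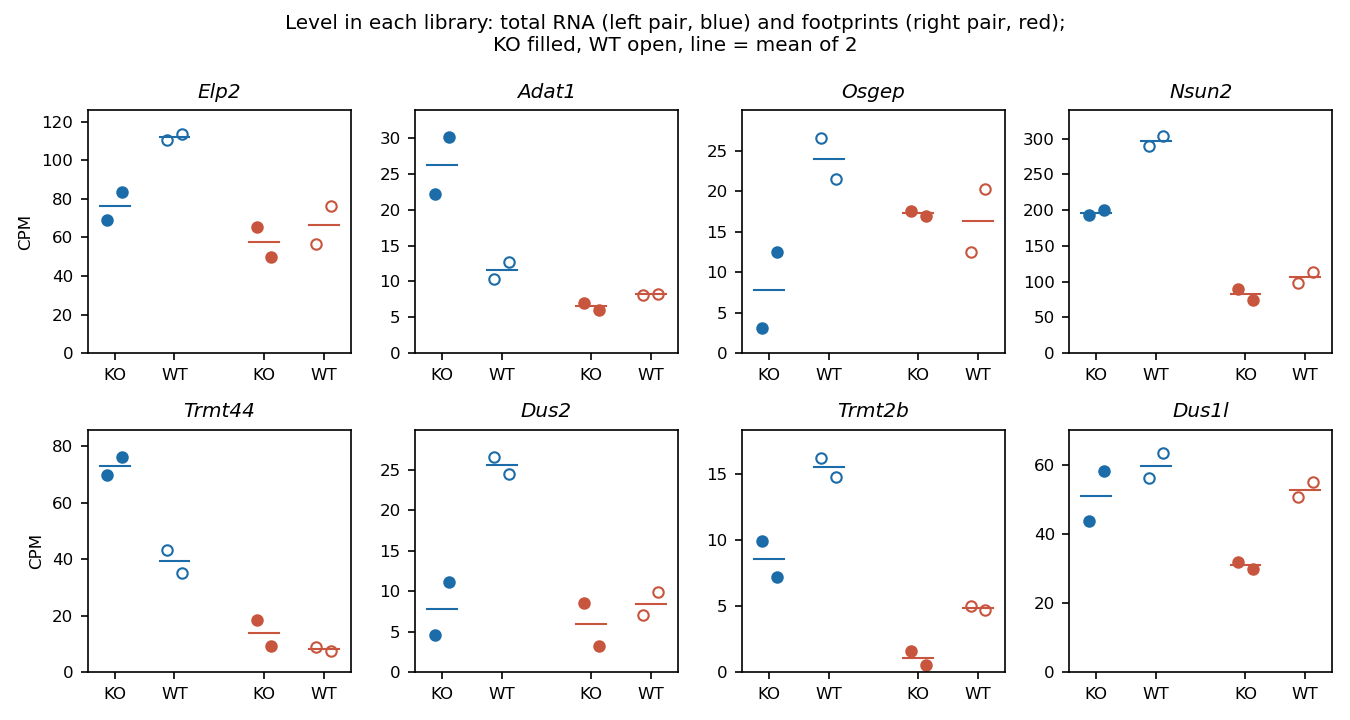
Level (vertical axis, CPM, linear from 0) in each library of the 8 genes called in total RNA or footprints, with filled points for KO libraries, open points for WT libraries and a line at the mean of 2. Osgep and Dus2 have KO total RNA levels of 3.07 to 12.5 CPM, well below WT, while their footprint levels overlap between KO and WT.

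With 1 of the 4 total RNA libraries left out, limma-trend called 0 of the 13222 genes (1863 to 3655 at an unadjusted p below 0.05), Mettl6 included, so a fit of 3 libraries does not bear on single genes. In the fit of all 8 libraries with 1 total RNA library left out, 861 to 1824 genes were called (7.58% to 16.1%), and 1 to 9 of the 56 tRNA modification genes tested. Of the 4 such fits, Osgep was called in 2, Nsun2, Elp2, Adat1 and Dus2 in 1 each and Trmt44 in 0. Fitted without the trend of the spread with level, limma called 0 of all genes in total RNA (2856 at an unadjusted p below 0.05). The sign of each of the 6 changes was the same in all of those fits. Of the called genes, Osgep (19.1%), Nsun2 (11.5%) and Elp2 (11.1%) share over 10% of their 25-base words with other annotated transcripts, against 2.81% for Adat1, 2.67% for Dus2 and 0.106% for Trmt44. Among all 57, 16 share over 10%, Trmt13 (33.3%), Trub2 (28.9%), Pus7 (21.3%), Pus1 (15.5%) and Wdr4 (13.6%) among them, and how the authors' counting split such reads is not stated in the sources used here.

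In ribosome footprints, fewer of these genes differed. Of the 57, 56 passed the filter, the exception being Nsun3, which was at 0 in both WT footprint libraries and at 1.23 and 1.09 CPM in KO. Limma-trend called 2 of the 56, both lower in KO, where 19% of 11624 genes were called (10.7% higher and 8.28% lower). At an unadjusted p below 0.05 there were 10 (17.9%), against 31.1% of all genes. The median log2 change was −0.03, against −0.05 over all genes, with 26 positive and 30 negative, against 5347 and 6277 of all genes. In 15 (26.8%) both KO libraries lay below both WT libraries and in 12 (21.4%) above, against 30.7% and 26.9% of all genes. Split by mean level in footprints, 1 of 10 was called at 1 to 5 CPM, 0 of 30 at 5 to 20 CPM, 1 of 13 at 20 to 50 CPM and 0 of 3 at 50 CPM and over, against 8.56%, 15.3%, 24.6% and 33.9% of all genes at those levels. In total RNA the split ran both ways: 0 of 3 were called at 1 to 5 CPM, 3 of 19 at 5 to 20 CPM, 0 of 22 at 20 to 50 CPM and 3 of 13 at 50 CPM and over, against 1.33%, 5.52%, 12.2% and 29.9% of all genes.

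Dus1l (ENSMUSG00000025155.15, chromosome 11, 120789201 to 120796403, minus strand), a dihydrouridine synthase, had 32.0 and 30.0 CPM in KO footprints, against 50.7 and 55.0 CPM in WT, a 1.71-fold lower mean (log2 change −0.75, SE 0.206, adjusted p = 0.00769 by limma-trend). The groups stood well apart. In total RNA Dus1l had 43.8 and 58.4 CPM in KO, against 56.1 and 63.3 CPM in WT, which overlap (log2 change −0.23). Dus1l lies on a chromosome whose genes were lower as a body in KO, and with each chromosome's median removed the footprint change was −0.36 (adjusted p = 0.214 by limma-trend). Trmt2b (ENSMUSG00000067369.12, chromosome X, 134222339 to 134276984, minus strand) had 1.64 and 0.545 CPM in KO footprints, against 5.07 and 4.71 CPM in WT (log2 change −1.54, SE 0.460, adjusted p = 0.0146 by limma-trend). That is 4 and 1 reads in KO, against 15 and 10 in WT, and its total RNA was also lower in both KO libraries, without a call. With any 1 footprint library left out, the log2 change ran from −0.81 to −0.69 for Dus1l and from −1.93 to −1.16 for Trmt2b. Such fits leave 1 library in a group, so calls in them do not bear on single genes.

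In the other role groups the gene with the smallest p in footprints was not called. Wdr4 had 6.56 and 2.72 CPM in KO, against 7.77 and 11.8 CPM in WT (log2 change −0.995, adjusted p = 0.0567 by limma-trend). Its footprints were lower in both KO libraries while its total RNA was higher in both. Pus1 had 29.1 and 23.4 CPM in KO, against 44.3 and 35.8 CPM in WT (−0.59, adjusted p = 0.0578 by limma-trend), and Trit1 had 9.43 and 7.08 CPM in KO, against 12.5 and 16 CPM in WT (−0.72, adjusted p = 0.0936). Neither pair of groups overlapped. Alkbh1 was higher in both KO libraries, with 8.62 and 11.4 CPM in KO, against 4.39 and 7.30 CPM in WT (0.71, adjusted p = 0.151 by limma-trend), as it was in total RNA. Adat2 had 23.8 and 28.3 CPM in KO, against 18.6 and 19.8 CPM in WT (0.42, adjusted p = 0.239 by limma-trend). Adat2 shares 249 exonic bases with Pex3, a peroxisome gene on the other strand that was higher in KO total RNA (log2 change 0.93, adjusted p = 0.00697 by limma-trend). Elp3 had 57 and 53.4 CPM in KO, against 39.5 and 47.5 CPM in WT (0.34, adjusted p = 0.248 by limma-trend), and Thg1l had 9.43 and 13.1 CPM in KO, against 6.08 and 7.53 CPM in WT (0.64, adjusted p = 0.174). For both, KO lay above WT in every footprint library and below WT in every total RNA library.

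The wobble uridine genes can be set side by side in the 2 kinds of library. In footprints 1 of the 9 (Ctu2) had both KO libraries below WT and 2 (Elp3 and Elp4) had both above, with a median log2 change of 0.09, beside 6 below and 1 above in total RNA. Over all genes 30.7% lay below and 26.9% above in footprints, against 29.8% and 26.4% in total RNA. The medians of the other groups in footprints ran from −0.21 for the pseudouridine synthases to 0.22 for the 6 tested genes of ribose methylation, queuosine and 5-methylcytidine, beside Thg1l alone at 0.64. The ribosomal RNA precursor Rn45s took 38.3% to 46.3% of the footprint libraries, and once it was left out of the library total, an alternative chosen after the data were seen, limma-trend called 7 of the 56 lower in KO footprints: Dus1l, Trmt2b, Nsun2, Pus1, Trit1, Trmt13 and Wdr4. Under that setting 23.1% of all genes were called. Rn45s took 38.3% and 42.6% in KO, against 46.3% and 41.3% in WT.

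**Figure D3:**
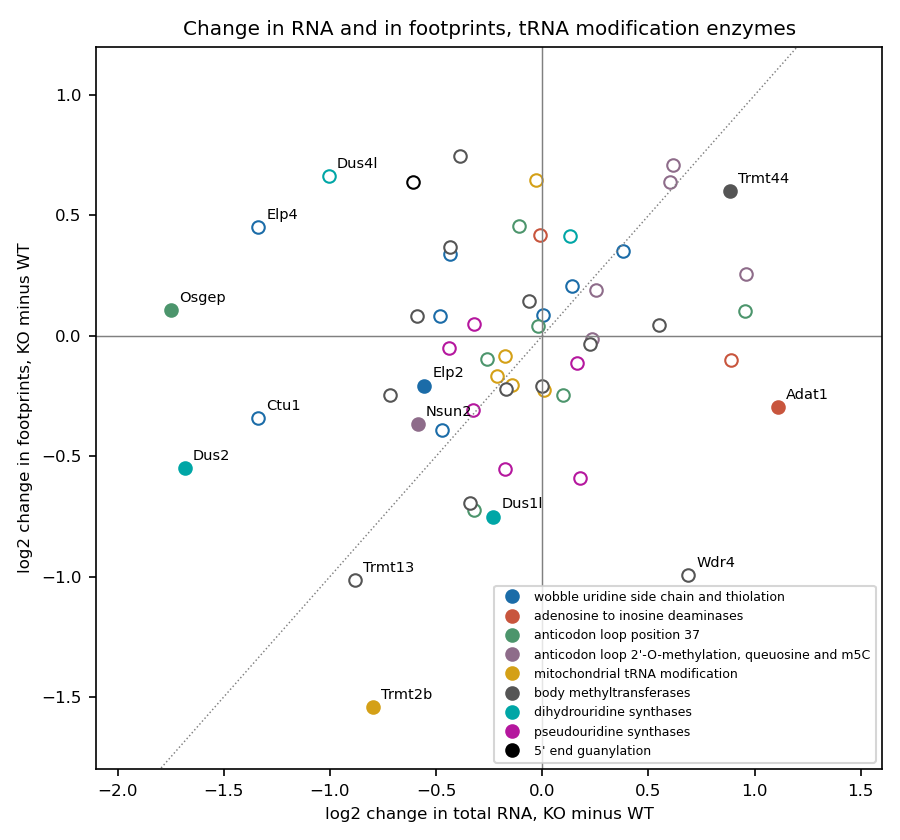
Log2 change in total RNA (horizontal axis) against log2 change in footprints (vertical axis), KO against WT, for genes tested in both, on the CPM + 1 scale. Osgep and Elp4 lie far left at footprint changes of 0.11 and 0.45, and Wdr4 and Adat1 lie right of 0 and below it.

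Changes in RNA and footprints followed each other only loosely across these genes. Spearman's rho between them was 0.19 over the 56 genes, against 0.58 over all 11364 genes tested in both, and 32 of the 56 had the same sign in both, against 71.2% of all genes. These points share the same 8 libraries, and low read numbers add scatter to both axes.

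Translational efficiency, the change in footprints less the change in total RNA, was tested as an interaction in a fit of all 8 libraries. Limma-trend called 0 of the 56 genes, where 7 of 11364 genes were called (0.0616%, with 0.044% higher and 0.0176% lower), and 8 had an unadjusted p below 0.05 (14.3%), against 8.91% of all genes. The 8 were Osgep (log2 change 1.86), Elp4 (1.79), Thg1l (1.25), Trmt11 (1.13) and Elp3 (0.77) with a higher efficiency in KO, and Wdr4 (−1.68), Adat1 (−1.40) and Pus1 (−0.77) with a lower one. Their adjusted p ran from 0.332 to 0.553 by limma-trend, so no single change passed the test. The fit without KO total RNA library 2 rests on 1 library in that group, so its calls do not bear on single genes. The median over the 56 was 0.06, against 0.07 over all genes, and among the 9 wobble uridine genes described above, 8 had a positive value, with a median of 0.35. Over all genes 6293 of 11364 had a positive value. Osgep combines KO total RNA far below WT with footprints of 17.6 and 16.9 CPM in KO, against 12.5 and 20.2 CPM in WT, which overlap. Dus2, the other gene with a large fall in total RNA, had 8.61 and 3.27 CPM in KO footprints, against 7.09 and 9.88 CPM in WT, which also overlap. For Adat1 the order was the reverse, with total RNA higher in KO and footprints of 6.99 and 6.03 CPM in KO, against 8.12 and 8.27 CPM in WT, below WT in both KO libraries.

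**Figure D4:**
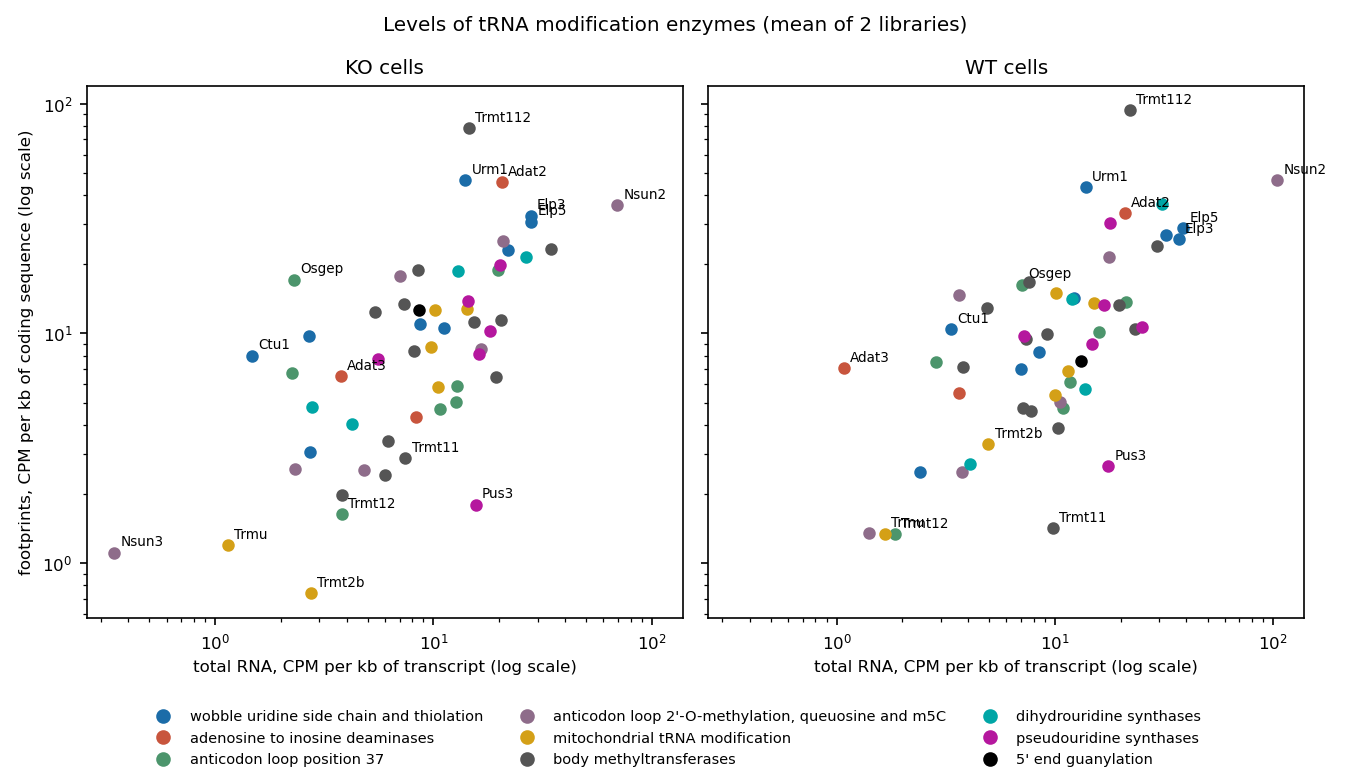
Mean level of the genes in total RNA (horizontal axis, CPM per kb of transcript, log scale) against footprints (vertical axis, CPM per kb of coding sequence, log scale), KO cells left and WT cells right, coloured by role. Nsun2 is farthest right and Trmt112 highest in both panels, and Nsun3, which was at 0 in WT footprints, is drawn for KO cells only.

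Levels per kilobase of transcript spanned a wide range. Nsun2 was highest in total RNA, at 69.4 CPM per kb in KO and 104 CPM per kb in WT, followed in KO by Trmt1 at 34.6 CPM per kb and Elp5 at 28.0 CPM per kb, and in WT by Elp5 at 38.7 CPM per kb and Elp3 at 37 CPM per kb. Nsun3 was lowest, at 0.344 CPM per kb in KO and 0.397 CPM per kb in WT, and Trmu stood at 1.15 CPM per kb in KO and 1.66 CPM per kb in WT. In footprints per kilobase of coding sequence, Trmt112 was highest, at 78.4 CPM per kb in KO and 93.6 CPM per kb in WT, then Urm1 in KO at 46.6 CPM per kb and Nsun2 in WT at 46.6 CPM per kb. Adat2 followed in KO at 45.5 CPM per kb, and Urm1 in WT at 43.4 CPM per kb. Over the 57 genes, the 2 scales had a Spearman's rho of 0.67 in KO and 0.68 in WT, as a description of points that share libraries.

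The ratio of footprint CPM to total RNA CPM was lower than 1 for 48 of the 56 genes in KO and for 48 in WT. Over all 11364 genes it was lower than 1 for 8596 in KO and 8937 in WT. In KO, 35 of the 56 differed by limma-trend, 3 higher and 32 lower in footprints, where 61% of all genes were called (8.66% higher and 52.3% lower). In WT 37 did, 1 higher and 36 lower, where 61.5% of all genes were called (7.37% higher and 54.1% lower). At an unadjusted p below 0.05 there were 40 in KO and 39 in WT, against 64.2% and 64.6% of all genes. The median log2 ratio was −0.81 in KO and −1.12 in WT, against −0.79 and −0.87 over all genes, and a ratio on this scale also moves with the share of Rn45s. With libraries scaled by their median ratio over all 8, the counts were 23 in KO and 19 in WT, where 52.7% and 50% of all genes were called, and the medians 0.07 and −0.15, against 0.07 and 0.03 over all genes. The lowest ratios in KO were those of Pus3 (log2 ratio −3.30), Trub2 (−2.63) and Trmt12 (−2.54), and in WT those of Trmt11 (−3.02), Pus3 (−2.92) and Alkbh1 (−2.63). The highest were those of Ctu1 (1.58), Osgep (1.30) and Trmt112 (1.13) in KO, and Adat3 (1.86), Trmt112 (0.66) and Ctu1 (0.58) in WT. Of these, Pus3, Adat3 and Trmt112 are the genes that share most of their sequence with another annotated gene. Total RNA of Ctu1 and Osgep in KO rested on few reads (above), so their KO ratios are uncertain.

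Chromosomes 6, 8 and 11 hold genes that as a body were lower in KO, with a median log2 change of −0.42 over 2431 genes in total RNA and −0.44 over 2171 in footprints, against 0.03 and 0.02 on the other chromosomes. Of the 57, 9 lie there: Ctu2, Adat1, Gtpbp3, Trmt1 and Dus2 on chromosome 8, and Elp5, Dus1l, Pus10 and Thg1l on chromosome 11. Their median was −0.44 in total RNA and −0.23 in footprints, against −0.16 and 0.04 for the others. Thus 3 of the 8 called genes (Dus2, Adat1 and Dus1l) lie on chromosomes whose other genes also moved, Adat1 against their direction. In total RNA 22.2% of the 9 were called, against 22.2% of all genes on these chromosomes. In footprints 11.1% of the 9 were called, against 31.4%. With chromosome medians removed, limma-trend called 9 of the 57 in total RNA, the 6 above with Elp4, Trmt1 and Trmt6, where 13.2% of all genes were called, and 4 of the 56 in footprints (Pus1, Trmt2b and Wdr4 lower and Thg1l higher), where 17.3% were.

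Since Mettl6 acts on serine tRNAs, the share of serine codons was set beside the changes. It ranged from 2.97% to 10.1% of codons over the 57 genes, with a median of 7.06%, against 7.75% over 11859 coding genes tested in total RNA. Over 56 genes, Spearman's rho between this share and the log2 change was 0.09 in footprints and 0.02 in translational efficiency, a description across genes that share libraries.

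Other genes of tRNA modification and tRNA processing were tested in the same fits. Of 32 tested genes of a second list of tRNA modification (subunits and partners not among the 57), 2 were lower in KO total RNA by limma-trend (6.25%, beside 13.6% of all genes), Rpusd3, a mitochondrial pseudouridine synthase-like protein, and Thumpd3, a guanosine methyltransferase. Rpusd3 had 10.8 and 2.62 CPM in KO, against 24.1 and 21.5 CPM in WT (log2 change −1.86, adjusted p = 0.0196 by limma-trend), and Thumpd3 had 63.8 and 62.3 CPM in KO, against 106 and 97.1 CPM in WT (−0.68, adjusted p = 0.0194). Both lie on chromosome 6. In footprints 2 of 32 were lower (6.25%, beside 19% of all genes), Thumpd3 (log2 change −0.80, adjusted p = 0.0113 by limma-trend) and Tprkb, a subunit of the complex that holds Osgep, with 4.11 and 3.39 CPM in KO, against 7.83 and 13.2 CPM in WT (−1.24, adjusted p = 0.0123). Tprkb also lies on chromosome 6.

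Of 29 genes of tRNA processing, 4 were lower in KO total RNA and 0 higher by limma-trend, a called share of 13.8% beside 13.6% of all genes. Trnt1, the enzyme that adds the CCA end (chromosome 6), had 33.5 and 39.4 CPM in KO, against 101 and 109 CPM in WT (log2 change −1.51, adjusted p = 0.000106 by limma-trend). The groups were far apart, and its footprints were lower too, at 12.3 and 13.1 CPM in KO, against 19.6 and 26.4 CPM in WT (−0.79, adjusted p = 0.0293 by limma-trend). Ddx1 (−0.65, adjusted p = 0.00746) and Ssb, the La protein (−0.45, adjusted p = 0.0308), were the other abundant ones in limma-trend, with Rpp14, a subunit of RNase P (−1.13, adjusted p = 0.048). In footprints 3 of 28 were called (10.7%, beside 19% of all genes), Trnt1 lower and the RNase P subunits Rpp21 and Pop5 higher. Rpp21 had 49.6 and 43.0 CPM in KO, against 20.6 and 16.9 CPM in WT (log2 change 1.26, adjusted p = 7.35e-05 by limma-trend), and Pop5 had 34.0 and 30.5 CPM in KO, against 15.7 and 24.0 CPM in WT (0.70, adjusted p = 0.0358). Total RNA of Rpp21 also lay above WT, at 19.2 and 13.1 CPM in KO, against 6.40 and 5.11 CPM in WT, without a call. That of Pop5 overlapped between the groups. Translational efficiency gave 0 calls by limma-trend in either list, with 2 of 32 and 3 of 28 genes at an unadjusted p below 0.05.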

How the data were processed

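Total RNA and ribosome footprints were measured in 8 libraries, 2 per group, from KO and WT cells. The authors' deposited values are CPM per gene symbol, and per the submitters' processing notes CASAVA 1.8.2, Bowtie2, RSEM and mm10 were used. Settings, annotation and strand use are not stated in the sources used here. Reads assigned with probabilities leave fractions, so counts were not recovered: only 61.7% to 90.5% of values above 0 were whole multiples of 1 read within 0.01, and a limma test on log2 values was used.

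From the deposited CPM, log2(CPM + 1) was computed and genes averaging 1 CPM or more across the compared libraries (in both kinds for translational efficiency) were fitted with limma 3.58.1 in R 4.3.3, with a trend of variance with level, and p-values were adjusted by Benjamini-Hochberg over all genes at 0.05. Log2 changes are KO minus WT and on this scale understate changes of low genes. Total RNA and footprints were fitted separately, and the interaction and ratios over all 8. The labels do not name separate cultures beyond calling the 2 libraries biological replicates, so p-values measure the spread between these libraries. The fit was run on simulated data with planted changes as a check of the code, which does not bear on the calls given here.

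Positions come from GENCODE vM21 (GRCm38), and promoters from RefSeq GRCm38.p6, matched for 50 of 57 genes. Shared sequence is the share of a gene's 25-base words found in other annotated transcripts. Named genes are all those called, and the smallest p per role group in each kind of library. The genes, lists, role groups and the grouping of chromosomes were chosen with earlier results of these data known. Alternatives varied the pseudocount, filter, scaling, chromosome medians, variance trend, replicate block, fit and libraries. Values of 1 gene on the list are not reported here, though counts over the whole list include it.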

Additional observations from a re-analysis of the deposited data

How the results depend on the processing

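None of the named genes' changes that were recomputed reversed under the alternatives run. In total RNA the 2 higher and 4 lower calls, beside 13.6% of all genes called, became 1 and 2 with a pseudocount of 0.1 (11.4% of all genes). They became 1 and 1 with no filter on low values (5.67%), and 0 and 0 without the variance trend (0%). With 1 library left out of total RNA or of footprints the counts also moved, but those fits leave 1 library in a group. In footprints the 0 higher and 2 lower calls, beside 19% of all genes called, became 1 higher and 3 lower with chromosome medians removed (17.3%). They became 1 lower without the variance trend (5.61%) and 7 lower with Rn45s left out (23.1%). Translational efficiency gave 0 calls among these genes in the settings without left-out libraries. Median-ratio scaling over 8 libraries gave 23 ratio calls in KO and 19 in WT, beside 52.7% and 50% of all genes. The cause of these shifts was not tested. Nsun2 and Trmt44 each kept their call in 10 of 11 settings without left-out libraries, Dus2 in 9, Osgep and Adat1 in 8 and Elp2 in 4. In the 4 fits of 8 libraries with 1 total RNA library left out, Osgep kept its call in 2, Nsun2, Dus2, Adat1 and Elp2 in 1 each and Trmt44 in 0.

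Samples with the same number deviated together with r from −0.0275 to 0.0571. The labels do not say whether they came from the same culture, and these values cannot show it. The main fits treated them as unpaired. With the replicate number as a block, 2 genes were called higher and 5 lower in total RNA (Elp4 added), 0 higher and 2 lower in footprints, 0 in translational efficiency, and 35 and 37 in the ratios of KO and WT. The shares of all genes called were 15.5%, 15.8%, 0.0792%, 60.6% and 61.3%, in that order.

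Depth limits the low genes: 1 read is 0.338 to 0.768 CPM, so a gene at 5 CPM rests on few reads, and 2 libraries a group leave a wide spread for the 22 genes under 20 CPM in total RNA.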
